A study of Homo sapiens with 12 samples.

Results

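The G2 and mitosis genes are 45 genes whose products carry a cell from the end of DNA synthesis through chromosome segregation to the separation of the daughter cells. They were taken from a written list of gene symbols, chosen with earlier results of these data known. The symbols were matched to the 60669 Ensembl gene IDs of the RNA-seq count table, and all 45 were found. All 45 were among the 18720 genes that passed the expression filter, and they were sorted into 10 roles. Counts came from 6 established human cell lines that the study names as ovarian cancer lines. They were treated with the antimalarial drug quinacrine (QC) at 8 µM or with buffer (vehicle) for 6 h. The lines form 3 isogenic families, each with a chemotherapy-sensitive line and a resistant line: HeyA8 and HeyA8-MDR, SK-OV-3 and SK-OV-3-TR, and OV2008 and C13. Each line gave 1 vehicle and 1 QC library from polyA RNA, 12 libraries in all, so a change within a single line has no replicate check and the lines serve as replicates in the tests. The 2 lines of a family share their origin, so p-values measure the spread between these lines and not between independent tumors.

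Transcription of these genes is low in G1 and peaks in G2 and mitosis. It is held down in resting and p53-activated cells by the DREAM repressor complex. After p53 activation, this repression needs the p53 target CDKN1A (the CDK inhibitor p21). In cycling cells transcription is driven by MYBL2 bound to the MuvB core and then by FOXM1. CDK1 with its cyclins starts mitosis, the spindle checkpoint holds it until every chromosome is attached, and the anaphase-promoting complex ends it by destroying cyclin B and securin. In bulk RNA, fewer cells in G2 or mitosis and less mRNA per such cell cannot be told apart.

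Many genes of this kind are known to carry in their promoters a cell cycle genes homology region (CHR, letters TTTGAA) and CCAAT boxes. The 120 bases before the annotated start are shown for 6 members, some with TTTGAA and some without. They are from RefSeq on GRCh38.p14, 5′ to 3′ on the gene's own strand. Capitals mark TTTGAA and CCAAT, the latter also when read on the other strand as ATTGG. Variants of these letters were not marked. All 6 genes lie on the plus strand. CCNB2, PLK1, CDC20 and HMMR hold both motifs, and CCNB1 and KIF20A hold CCAAT without TTTGAA.
CCNB2 (cyclin B2), chr15:59105026-59105145: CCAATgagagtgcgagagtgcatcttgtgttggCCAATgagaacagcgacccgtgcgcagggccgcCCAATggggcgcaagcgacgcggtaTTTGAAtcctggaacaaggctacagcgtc
PLK1 (polo-like kinase), chr16:23678769-23678888: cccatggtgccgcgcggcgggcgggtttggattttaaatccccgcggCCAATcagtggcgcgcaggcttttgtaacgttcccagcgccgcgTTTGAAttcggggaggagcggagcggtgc
CDC20 (activator of the anaphase-promoting complex), chr1:43358861-43358980: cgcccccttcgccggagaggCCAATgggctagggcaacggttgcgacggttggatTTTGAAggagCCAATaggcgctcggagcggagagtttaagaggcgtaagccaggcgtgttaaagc
HMMR (spindle-binding hyaluronan receptor), chr5:163460512-163460631: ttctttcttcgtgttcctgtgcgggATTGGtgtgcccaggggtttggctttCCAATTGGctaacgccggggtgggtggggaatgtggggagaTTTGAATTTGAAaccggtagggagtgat
CCNB1 (cyclin B1), chr5:69167030-69167149: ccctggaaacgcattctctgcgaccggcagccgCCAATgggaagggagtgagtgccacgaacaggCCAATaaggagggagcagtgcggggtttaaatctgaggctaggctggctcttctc
KIF20A (mitotic kinesin), chr5:138178992-138179111: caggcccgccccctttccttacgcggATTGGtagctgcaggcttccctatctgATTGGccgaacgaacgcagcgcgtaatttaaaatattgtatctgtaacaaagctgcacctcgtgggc

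In these windows TTTGAA begins 29 bases before the start in CCNB2 and in PLK1, 65 bases before it in CDC20, and 28 and 22 bases before it, in tandem, in HMMR. A promoter of 250 bases before to 50 after the start was at hand for 39 members, at 49 starts. TTTGAA, read on both strands, lay in 32 of these 49 (65.3%) and in 15.2% of the 35116 promoters of all genes. CCAAT, read on both strands, lay in 38 (77.6%) against 34.6% of all promoters, and both motifs together in 27 (55.1%) against 5.9%. By comparison, TTTGAA lay in 5 of 60 promoters (8.33%) of 45 G1/S and replication genes, and CCAAT in 34 of them (56.7%). The promoters of AURKA, BUB3, TTK, UBE2C, BIRC5 and TPX2 were not used here.

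Reads counted on genes totalled 17782556 to 30585059 per library, and members other than NUSAP1 had at least 32 counts in every library. NUSAP1, a spindle microtubule protein, had as few as 6 counts, and 86.8% of its exon bases are shared with other annotated genes. PRC1, which bundles midzone microtubules, shares 61.9% of its exon bases, so the counts of both genes are uncertain. The Mullerian marker PAX8 had 4300 to 16239 counts in the HeyA8 and SKOV3 families but 135 to 657 in OV2008 and C13, where SOX17 had 0 to 2 counts and the squamous marker TP63 had 3244 to 7463. KRT7 was also lower there, but EPCAM, KRT8 and KRT18 were highest in these lines, and EMX2 had at most 12 counts in any library. The summed level of all 10 ovarian and Mullerian markers was 3351 to 6274 CPM (counts scaled to the total count of the library) in OV2008 and C13 and 1335 to 2236 in the other lines. In OV2008 and C13 this sum came mostly from KRT8 and KRT18, with 56309 and 37042 counts in OV2008 vehicle cells beside 135 for PAX8. It therefore says little about an ovarian origin of these 2 lines. For 4 squamous markers the sum was 3103 to 13440 CPM in OV2008 and C13 and 0 to 59.1 in the other lines. Immune markers were near 0, with a summed level over 5 genes of 0.213 to 1.46 on the same scale. All other levels are CPM with library sizes adjusted by TMM. For genes that differed most within its pair, the HeyA8 QC library stood nearer to the vehicle level of its isogenic partner than the other QC libraries did. For 286 genes that were 8-fold or more above HeyA8 in HeyA8-MDR vehicle cells, the median position between these vehicle levels, on the linear scale with HeyA8 at 0%, was 38.1%. For 228 genes that were 8-fold or more below, this position was 53.7%. The same positions in the other 5 lines ran from 0% to 29.6%, the highest in HeyA8-MDR. The drug efflux pump ABCB1 stood at 4.12 CPM in HeyA8 vehicle, 26.5 in HeyA8 QC and 53.9 in HeyA8-MDR vehicle cells. All 45 members were lower in HeyA8-MDR than in HeyA8 vehicle cells and had a median position of 47.9% (quartiles 15.5% and 59.8%) in the HeyA8 QC library, beside 62.8% in SK-OV-3 and 36.5% in HeyA8-MDR toward their own partners. The part of this shift in the members' change in HeyA8 was not tested, and the counts of members called are given with and without HeyA8.

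With QC the members were mostly higher in 3 lines and mostly lower in the other 3. All 45 were higher with QC in SK-OV-3, with a median log2 change of 1.47 (2.77-fold) and a range from 0.37 (BUB3) to 2.16 (HMMR). All 45 were also higher in SK-OV-3-TR, with a smaller median of 0.63 (1.55-fold) and a range from 0.07 (AURKB) to 1.10 (DLGAP5). In HeyA8-MDR 40 were higher, with a median of 0.78 (1.71-fold) and values from -1.23 (NUSAP1) to 2.05 (HMMR). In HeyA8 40 of 45 were lower, with a median of -0.50 and a range from -1.48 (KIF14) to 0.48 (PTTG1). In C13 35 were lower, with a median of -0.44 and a range from -1.11 (AURKB) to 0.56 (ASPM). In OV2008 31 were lower, with a median of -0.26 and a range from -1.27 (KIF20A) to 0.95 (CENPE). The median of all genes tested lay within 0.01 of 0 in every line.

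**Figure D1:**
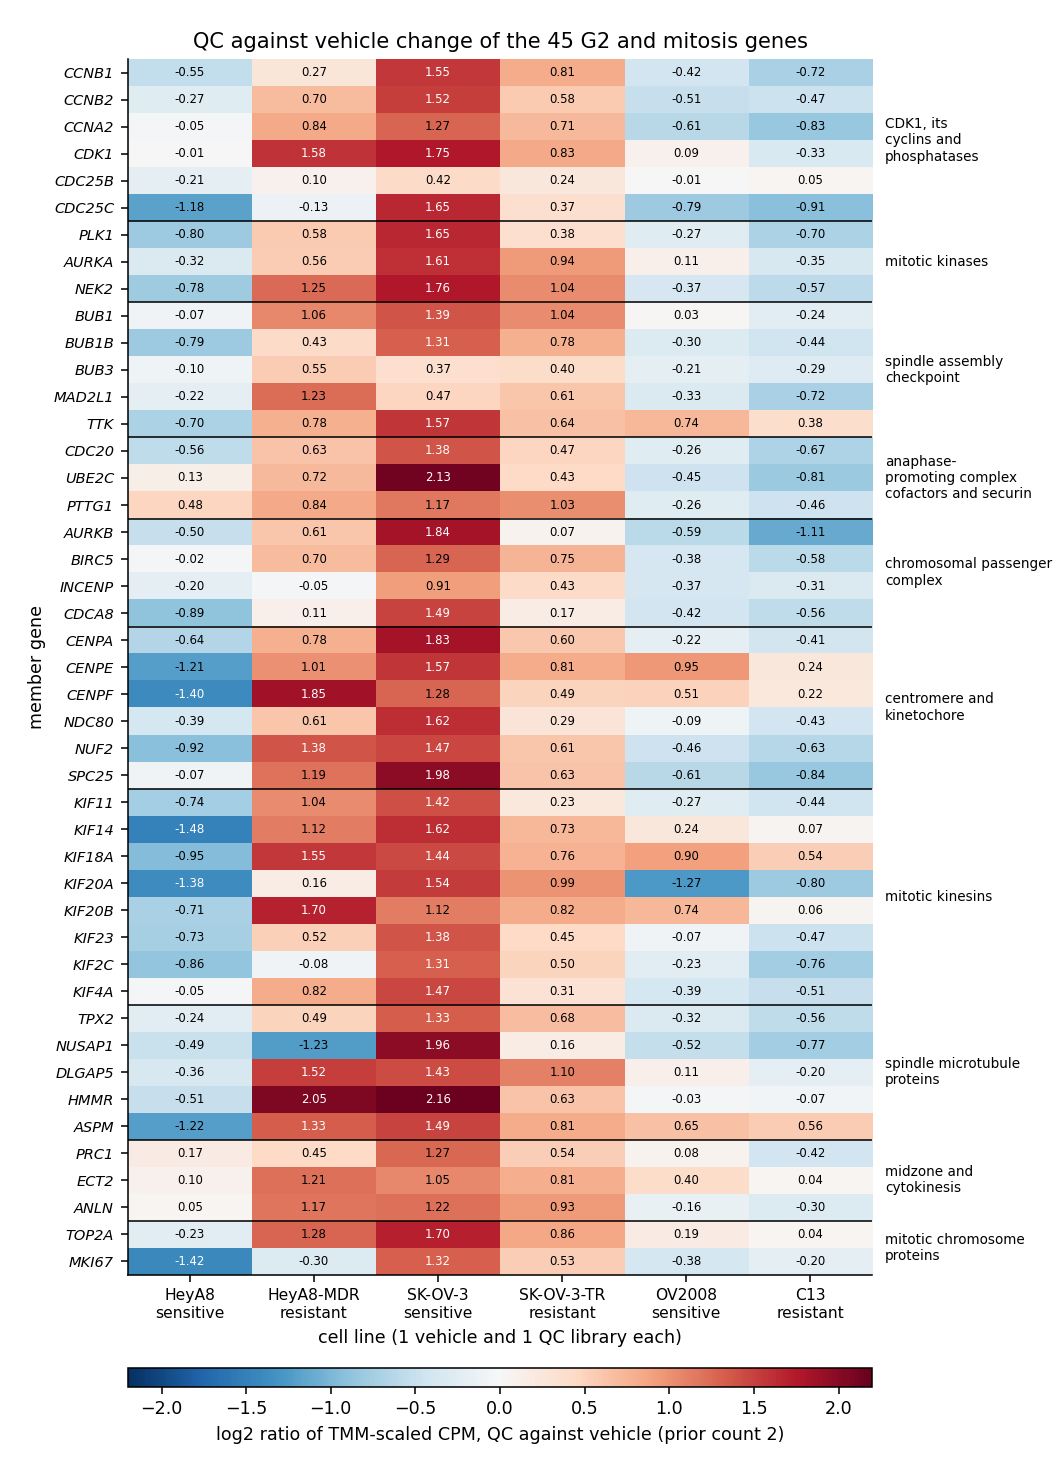
Log2 ratio of TMM-scaled CPM, QC against vehicle, for the 45 members (rows, by role) in the 6 lines (columns), 1 pair of libraries per line; red is higher with QC and blue is lower. SK-OV-3 is red in all 45 rows, SK-OV-3-TR is red in all rows and paler in most, and HeyA8, OV2008 and C13 are mostly blue except for a few rows such as TTK, CENPE, KIF18A and ASPM in OV2008 and C13. With RPLP0 scaling the medians of OV2008 and C13 turn to 0.21 and 0.04.

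In every line but OV2008, many members changed by at least 1.5-fold in the direction common in that line. In SK-OV-3 42 of 45 were at least 1.5-fold higher, where 9.07% of all genes were, and 0 were at least 1.5-fold lower, where 10.2% were. In HeyA8-MDR 29 were higher by this measure (16.4% of all genes) and 1 lower (19.3%). In SK-OV-3-TR 26 were higher (10.1%) and 0 lower (14.5%). In HeyA8 0 were higher (19.4%) and 19 lower (16.8%). In C13 0 were higher (17.4%) and 13 lower (12%). OV2008 had 5 members at least 1.5-fold higher (18.6%) and 5 lower (16.2%), both shares below those of all genes. Scaling to the ribosomal protein gene RPLP0 shifted the median of all genes by 0.46 in OV2008, 0.43 in C13 and 0.28 in SK-OV-3. It turned the members' median to 0.21 in OV2008 and 0.04 in C13, which are -0.25 and -0.39 relative to the median of all genes under the same scaling, and it left 38 members higher in OV2008 and 27 in C13.

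CDKN1A had a log2 change above 0 with QC in 5 lines, and the member median was below 0 in 3 of these and above 0 in the other 2. In OV2008 CDKN1A went from 68.8 to 339 CPM, a log2 change of 2.30, beside a member median of -0.26. In C13 it went from 125 to 404 CPM, a change of 1.69, beside a member median of -0.44. In HeyA8 it went from 461 to 768 CPM, a change of 0.73, beside a member median of -0.50. With RPLP0 scaling the member medians of OV2008 and C13 were 0.21 and 0.04. A link between the CDKN1A change and the member median was not tested. SK-OV-3 differed from HeyA8, OV2008 and C13 in the sign of its TMM-scaled member median. Its CDKN1A went from 21.1 to 36.7 CPM, a log2 change of 0.80 that was as large as in HeyA8 but from the lowest vehicle level of the 6 lines, and its members had the highest median, 1.47. In HeyA8-MDR CDKN1A stood at 543 CPM in vehicle and 580.1 in QC cells (0.10) beside a member median of 0.78. In SK-OV-3-TR it stood at 35.3 and 31.8 CPM (-0.15) beside a member median of 0.63. The lines were not grouped by this measured response, and no test was made of it.

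A list of 27 p53 targets, CDKN1A and MDM2 among them, separated SK-OV-3 from HeyA8, OV2008 and C13. The latter 3 were the other lines with a CDKN1A log2 change above 0.7. The median log2 change of 27 p53 targets was 0.73 in HeyA8, 0.76 in OV2008 and 0.82 in C13, with 25, 24 and 24 of the 27 higher. It was 0.02 in SK-OV-3, where 15 of 27 were higher, 0.10 in HeyA8-MDR and -0.12 in SK-OV-3-TR. In HeyA8 and HeyA8-MDR this median was the value of CDKN1A itself, so the list and CDKN1A are not separate readings there. MDM2, the p53 target that marks p53 for destruction, had a log2 change of 2.12 in C13, 1.28 in OV2008 and 0.94 in HeyA8, against -0.06 in SK-OV-3, 0.05 in SK-OV-3-TR and 0.15 in HeyA8-MDR. The 3 lines with a p53 target median above 0.7 were the 3 lines with a member median below 0, which under RPLP0 scaling held in HeyA8 only. Over 6 lines from 3 families this is a description, and the part of the HeyA8 shift toward HeyA8-MDR in it was not tested.

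**Figure D2:**
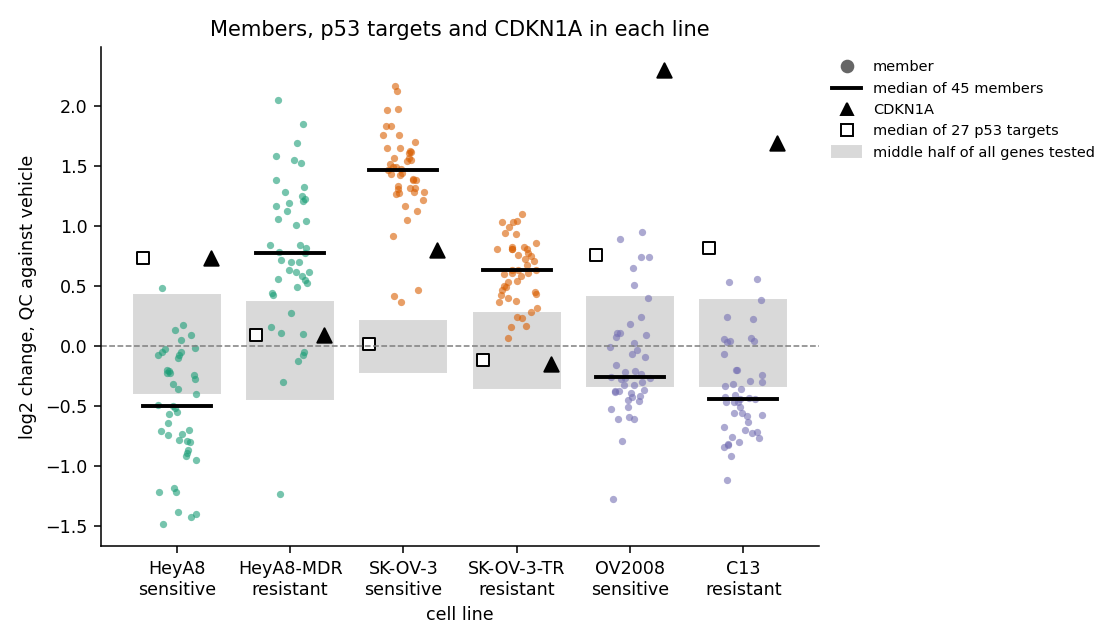
Log2 change with QC in each line: coloured points are the 45 members (colour marks the family), the black bar their median, the triangle CDKN1A, the open square the median of 27 p53 targets (CDKN1A among them), and the grey box the range between the quartiles of all 18720 genes tested. In HeyA8, OV2008 and C13 the square lies above the bar, and in SK-OV-3 the triangle is high while the square is at 0.02 and the bar at 1.47.

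CDK1, its cyclins and the CDC25 phosphatases that activate it were higher with QC in 6 of 6 members in SK-OV-3 and in SK-OV-3-TR, 5 in HeyA8-MDR, 1 in OV2008 and 1 in C13, and in 0 in HeyA8. CDK1, the mitotic kinase itself, stood at 20.4 CPM in SK-OV-3 vehicle and 68.9 in QC cells, and at 126 and 223 in SK-OV-3-TR. It stood at 33.2 and 99.9 CPM in HeyA8-MDR, at 117 and 116 in HeyA8, at 111 and 118 in OV2008, and at 167 and 133 in C13. CDK1 was thus higher by 1.58 to 1.75 (log2) in HeyA8-MDR and SK-OV-3 and near its vehicle level in HeyA8 and OV2008. CCNB1, the cyclin B1 partner of CDK1, went from 48.4 to 142 CPM in SK-OV-3, from 149 to 261 in SK-OV-3-TR and from 96.1 to 116 in HeyA8-MDR. It went the other way in the remaining lines, from 254 to 174 CPM in HeyA8, from 459 to 344 in OV2008 and from 514 to 312 in C13. CCNB2, cyclin B2, showed the same signs, with log2 changes of 1.52, 0.58 and 0.70 against -0.27, -0.51 and -0.47 in the same order of lines. CDC25B moved least in this group, with changes between -0.21 and 0.42, while CDC25C ranged from -1.18 in HeyA8 to 1.65 in SK-OV-3.

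Among the mitotic kinases, PLK1, which drives spindle assembly and mitotic exit, went from 34.6 to 109 CPM in SK-OV-3, from 105 to 137 in SK-OV-3-TR and from 59.1 to 88.6 in HeyA8-MDR. It went from 145 to 83.7 CPM in HeyA8, from 261 to 217 in OV2008 and from 248 to 153 in C13. AURKA, the centrosomal Aurora kinase, had log2 changes of 1.61 in SK-OV-3, 0.94 in SK-OV-3-TR and 0.56 in HeyA8-MDR, and of -0.32 in HeyA8, 0.11 in OV2008 and -0.35 in C13. NEK2, which splits the centrosomes, reached 1.76, 1.04 and 1.25 in the first 3 of these lines and -0.78, -0.37 and -0.57 in the others.

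The spindle assembly checkpoint genes were split by TTK. TTK, the kinase that recruits the checkpoint, was lower in HeyA8 only, where it went from 64.1 to 39.4 CPM, and was higher in OV2008 (48.4 to 80.9) and C13 (46.0 to 60.1) as well as in SK-OV-3 (17.3 to 51.4), SK-OV-3-TR (57.9 to 90.1) and HeyA8-MDR (12.5 to 21.5). BUB1, the checkpoint kinase at the kinetochore, went from 14.5 to 38.1 CPM in SK-OV-3, from 66.5 to 137 in SK-OV-3-TR and from 33.4 to 69.6 in HeyA8-MDR, and had changes between -0.24 and 0.03 (log2) in the other 3 lines. BUB1B, MAD2L1 and BUB3 were higher in SK-OV-3, SK-OV-3-TR and HeyA8-MDR and lower in the other lines, and the BUB3 change stayed between -0.29 and 0.55.

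The substrates and cofactors of the anaphase-promoting complex included the member with the smallest p for each comparison with the OV2008 family. PTTG1 (securin), the inhibitor of the protease that cuts cohesin, went from 24.0 to 53.9 CPM in SK-OV-3, from 96.3 to 197 in SK-OV-3-TR, from 125 to 174 in HeyA8 and from 109 to 195 in HeyA8-MDR, but from 178 to 149 in OV2008 and from 235 to 170.2 in C13. UBE2C, the ubiquitin-conjugating enzyme of the complex, went from 14.8 to 64.8 CPM in SK-OV-3 and from 233 to 133 in C13. CDC20, the activator of the complex, had log2 changes of 1.38 in SK-OV-3 and -0.67 in C13. In the chromosomal passenger complex, which corrects wrong attachments, BIRC5 (survivin) had log2 changes of 1.29, 0.75, 0.70, -0.02, -0.38 and -0.58 in SK-OV-3, SK-OV-3-TR, HeyA8-MDR, HeyA8, OV2008 and C13. INCENP, its scaffold, had 0.91, 0.43, -0.05, -0.20, -0.37 and -0.31, and the kinase AURKB ranged from -1.11 in C13 to 1.84 in SK-OV-3.

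Several genes of large kinetochore and spindle proteins were higher with QC in OV2008 and C13, where most members were lower. CENPE, the kinesin of the outer kinetochore, went from 45.7 to 88.6 CPM in OV2008 and from 49.0 to 58.0 in C13, but from 109 to 47.1 in HeyA8. CENPF, a farnesylated kinetochore protein, went from 143 to 204 CPM in OV2008 and from 139 to 163 in C13, and from 367 to 139.5 in HeyA8. In HeyA8-MDR CENPF had 7.79 CPM (150 counts) in vehicle and 28.4 (479 counts) in QC cells, the lowest levels of the 6 lines. ASPM, the spindle pole protein, went from 70.7 to 111 CPM in OV2008, from 67.5 to 99.6 in C13, from 164 to 70.4 in HeyA8, from 4.05 to 10.3 in HeyA8-MDR, from 42.9 to 121 in SK-OV-3 and from 108 to 189.8 in SK-OV-3-TR.

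The 8 mitotic kinesins had a median change of 1.43 in SK-OV-3, 0.61 in SK-OV-3-TR, 0.93 in HeyA8-MDR, -0.15 in OV2008, -0.45 in C13 and -0.80 in HeyA8. KIF18A, which dampens chromosome oscillation, was higher in OV2008 (26.2 to 48.7 CPM), C13 (27.9 to 40.5), SK-OV-3 (12.1 to 33.1), SK-OV-3-TR (32.8 to 55.5) and HeyA8-MDR (4.47 to 13.3), and lower in HeyA8 (51.7 to 26.7). KIF20B, a kinesin of late cytokinesis, had changes of 0.74 in OV2008, 0.06 in C13, 1.12 in SK-OV-3, 0.82 in SK-OV-3-TR, 1.70 in HeyA8-MDR and -0.71 in HeyA8. KIF20A, which carries the passenger complex to the midzone, went the other way in the OV2008 family, from 283 to 117 CPM in OV2008 and from 143 to 82.3 in C13. It went from 39.3 to 115 CPM in SK-OV-3, from 144 to 286 in SK-OV-3-TR, from 227 to 86.9 in HeyA8 and from 72.5 to 81.0 in HeyA8-MDR. DLGAP5, which stabilizes kinetochore fibers, had changes of 1.43, 1.10 and 1.52 in SK-OV-3, SK-OV-3-TR and HeyA8-MDR and between -0.36 and 0.11 in the other lines.

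Among the cytokinesis genes, ECT2, the exchange factor that turns on RhoA at the cell equator, was the 1 member higher with QC in all 6 lines (2.22% of members, against 4.13% of all genes). It went from 65.4 to 136 CPM in SK-OV-3, from 217 to 380.1 in SK-OV-3-TR, from 93.7 to 217 in HeyA8-MDR and from 196 to 258 in OV2008. In HeyA8 it stood at 229 and 245 CPM and in C13 at 116 and 119. ANLN (anillin), which links the contractile ring to the membrane, had log2 changes of 1.22 in SK-OV-3, 0.93 in SK-OV-3-TR, 1.17 in HeyA8-MDR, 0.05 in HeyA8, -0.16 in OV2008 and -0.30 in C13. TOP2A, the topoisomerase that untangles sister chromatids, went from 159 to 518 CPM in SK-OV-3, from 722 to 1308 in SK-OV-3-TR and from 135 to 329 in HeyA8-MDR, and had changes between -0.23 and 0.19 in the other lines. MKI67, the chromosome surfactant Ki-67, went from 239 to 596 CPM in SK-OV-3 and from 588 to 851 in SK-OV-3-TR. It was lower in the other 4 lines, from 848 to 316 CPM in HeyA8, from 192 to 156 in HeyA8-MDR, from 806 to 619.7 in OV2008 and from 519 to 452 in C13.

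**Figure D3:**
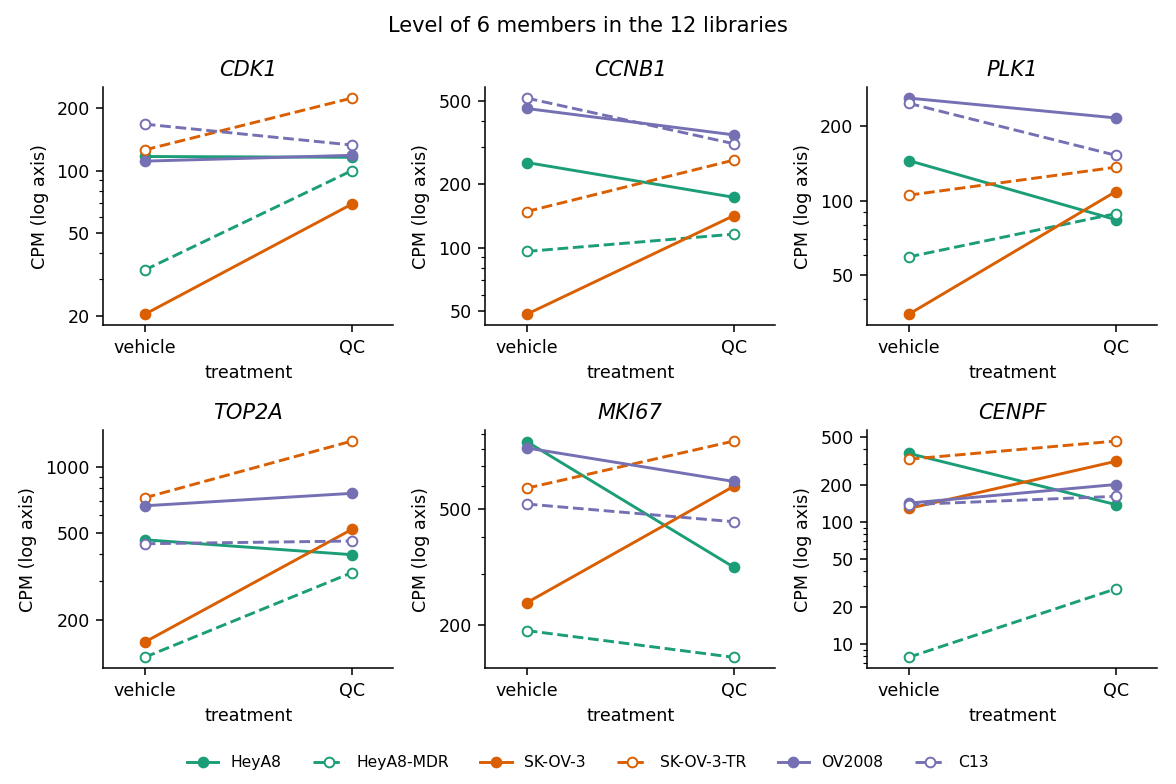
CPM (log axis) in vehicle and QC libraries for CDK1, CCNB1, PLK1, TOP2A, MKI67 and CENPF; each line joins the 2 libraries of a cell line, colour marks the family, solid lines with filled points the sensitive lines and dashed lines with open points the resistant lines. SK-OV-3 starts lowest for CDK1, CCNB1 and PLK1 and climbs in all 6 panels, and CENPF in HeyA8-MDR lies far below the other lines.

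Fitted as 1 QC effect over the 6 lines, with the cell line as a term in edgeR's quasi-likelihood model, 11 members were higher at an unadjusted p under 0.05 (7.99% of all genes tested were higher) and 0 were lower (7.18%). These were ECT2, TOP2A, KIF18A, TTK, CDK1, BUB1, KIF20B, DLGAP5, ANLN, PTTG1 and ASPM. After Benjamini-Hochberg adjustment 0 members and 0 genes (0%) had a p under 0.05, and DESeq2 with the same terms called 1 member. ECT2 had the smallest p, with a log2 effect of 0.60 ± 0.17 (SE, 6 pairs; edgeR adjusted p = 0.169). TOP2A had an effect of 0.64 ± 0.23 (adjusted p = 0.226) and CDK1 one of 0.64 ± 0.26 (adjusted p = 0.268). CCNB1 (0.15 ± 0.26), PLK1 (0.12 ± 0.27) and MKI67 (-0.08 ± 0.27) had effects smaller than their errors. The members' median effect was 0.26, with 39 of 45 above 0, beside a median of 0.00 for all genes. The members' median was 0.03 without SK-OV-3, 0.15 without HeyA8-MDR, 0.37 without HeyA8, 0.40 without OV2008, 0.42 without C13 and 0.09 without the cell line term. The count changed with single lines, and the share of all genes is given for the main fit only. It was 2 (1 higher, 1 lower) without SK-OV-3, 3 without SK-OV-3-TR and 1 without HeyA8-MDR, against 15 without HeyA8. With GC content and transcript length offsets it was 5, and without the cell line term 0.

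The study compared QC with vehicle in the sensitive and in the resistant lines. In the 3 sensitive lines 0 members were called in either direction at an unadjusted p under 0.05 (3.55% of all genes were higher and 3.04% lower), 0 by DESeq2 also, and the members' median effect was 0.22. This median joined lines that moved in opposite directions: without HeyA8 10 members were higher, and without SK-OV-3 4 were lower, while 2 were higher without OV2008 and 1 without C13. In the 3 resistant lines 5 members were higher (3.43%), namely ECT2, KIF18A, KIF20B, DLGAP5 and ASPM, and 0 were lower (2.59%), with a median of 0.27. The number was 0 when HeyA8-MDR was left out, 0 when SK-OV-3-TR was, 13 without C13, 10 without HeyA8, 12 without SK-OV-3 and 8 without OV2008, and 1 with GC content and length offsets. After adjustment 0 members and 0% of genes passed in either group of lines. Shares of all genes are given for the fits with all lines only.

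The difference between the QC effects of resistant and sensitive lines was not detectable for any member. At an unadjusted p under 0.05, 0 members were higher (0.566% of all genes) and 0 lower (0.593%), 0 by DESeq2, and 0 after adjustment (0%). The smallest p belonged to CENPF, with a difference of 0.66 ± 0.62 (SE; edgeR adjusted p = 1), ASPM with 0.55 ± 0.56 and NUSAP1 with -0.78 ± 0.80. CENPF and ASPM turned to -0.07 and -0.19 without HeyA8. Without SK-OV-3, the sensitive line with the highest member median, 9 members had a more positive effect in resistant lines. No share of all genes is given for that setting.

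In vehicle cells the members stood at different levels between the lines of a pair, but in opposite directions. All 45 were lower in HeyA8-MDR than in HeyA8, with a median log2 difference of -1.41 and a range from -5.56 (CENPF) to -0.03 (UBE2C). In contrast, 44 of 45 were higher in SK-OV-3-TR than in SK-OV-3, with a median of 1.87 and a range from -0.28 (CDC25B) to 3.53 (NUSAP1). Between C13 and OV2008 the median was 0.05, with 24 of 45 higher in C13 and a range from -0.99 (KIF20A) to 0.78 (NDC80). Over the 3 pairs 0 members were called in either direction (1.96% of all genes were higher in resistant lines and 1.75% lower), 0 by DESeq2 and 0 after adjustment (0%). The members with the smallest p were PTTG1 with a difference of 0.72 ± 0.49 (SE; edgeR adjusted p = 0.994), at 147 ± 76.5 CPM in resistant and 109 ± 78.4 in sensitive lines (SD, n = 3), UBE2C with 0.75 ± 0.65 and NUSAP1 with 0.96, which was smaller than its error. Without the SKOV3 family 6 members were lower in the resistant line, and without the HeyA8 family 5 were higher, again with no share of all genes given.

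The QC libraries of the 6 lines differed less from each other in these genes than the vehicle libraries did, as a description with no test. The ratio of the highest to the lowest line had a median over members of 8.20 in vehicle and 3.58 in QC libraries, and it was wider in vehicle for 40 of 45 members (88.9%). Over 14519 genes with no zero the same medians were 4.17 and 3.94, and 56.3% were wider in vehicle. Without HeyA8 the members' medians were 8.17 and 3.57, and without SK-OV-3 they were 5.03 and 2.96. SK-OV-3-TR went away from its partner, and was the highest line for 3 members in vehicle and for 26 in QC libraries. HMMR went from a ratio of 8.36 to 1.77 and AURKB, the Aurora kinase of the passenger complex, from 29.0 to 5.34. CENPF, CENPE and ASPM kept the widest ratios in QC libraries, 16.3, 19.4 and 18.4, with HeyA8-MDR the lowest line. SK-OV-3 had the lowest vehicle level for 29 members and HeyA8-MDR for the other 16, and these were the lines with the highest median changes. Change and vehicle level share the vehicle library, so this order is a description. Summed over the 45 members, the level went from 2057 to 4798 CPM in SK-OV-3, from 2512 to 4053 in HeyA8-MDR and from 5782 to 9186 in SK-OV-3-TR, and from 6852 to 4842 in HeyA8, from 8316 to 7414 in OV2008 and from 7787 to 6008 in C13.

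**Figure D4:**
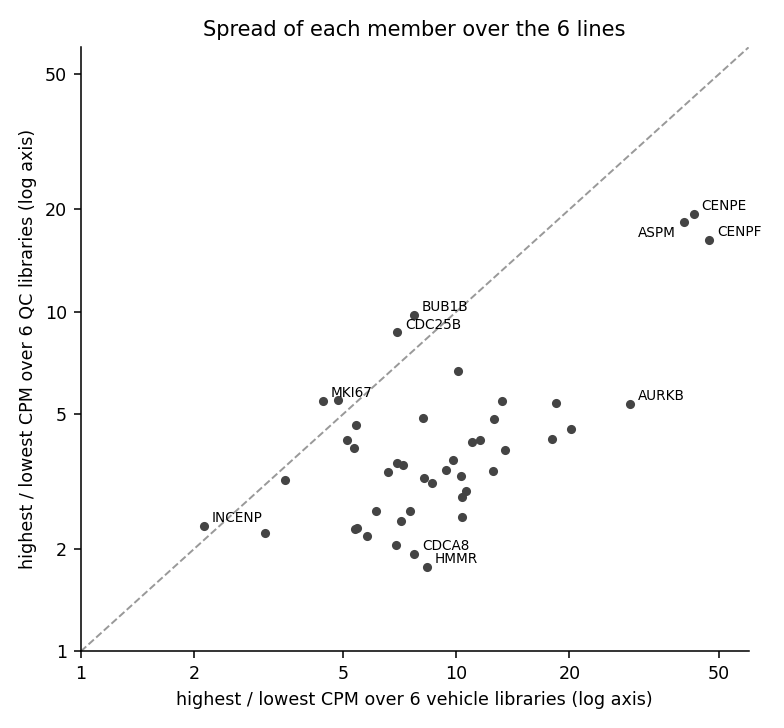
Ratio of the highest to the lowest CPM over the 6 lines in vehicle libraries (horizontal, log axis) and in QC libraries (vertical, log axis) for each of the 45 members; the dashed line marks equal ratios. Of the 45 points 40 lie below the line, and CENPF, CENPE and ASPM lie far to the right.

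The QC effects of the 3 families were then set against each other. This comparison was chosen after the values per line had been seen, each family has 2 isogenic lines, and the 3 comparisons share libraries. In the SKOV3 family 33 of 45 members had a more positive QC effect than in the OV2008 family at an unadjusted p under 0.05 (6.5% of all genes did) and 0 a more negative one (6.53%), and all 45 differences were above 0, with a median of 1.33. After adjustment 0 members passed (0.0534% of genes did), against 16 with DESeq2. PTTG1 had a difference of 1.46 ± 0.23 (SE; edgeR adjusted p = 0.0806), CCNA2, the cyclin of S and G2, one of 1.71 ± 0.32 (adjusted p = 0.0965) and KIF20A one of 2.30 ± 0.44 (adjusted p = 0.097). The number was 16 without SK-OV-3, 22 without C13, 30 without OV2008 and 34 without SK-OV-3-TR. It was 39 without HeyA8, of which 27 passed adjustment, and 38 without HeyA8-MDR, of which 28 passed. Without the cell line term it was 1. For these settings no share of all genes is given beside the counts. Higher in both SKOV3 lines and lower in both OV2008 lines were 30 members (66.7%), against 8.08% of all genes. With RPLP0 scaling these were 5 members (11.1%), against 2.02% of all genes. The signs of the members had been seen per line before this pattern was counted, so these shares are a description only.

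The 2 lines of the HeyA8 family had medians of opposite sign. Shares of all genes below belong to the main fits, and the counts with a line left out have none beside them. Against the HeyA8 family, 17 members had a more positive effect in the SKOV3 family (4.66% of all genes did) and 0 a more negative one (4.05%), with 0 after adjustment (0%) and 2 by DESeq2. MKI67 differed by 1.79 ± 0.39 (SE; edgeR adjusted p = 0.401), KIF20A by 1.88 ± 0.45 and CCNB1 by 1.32 ± 0.34. The number was 9 without HeyA8 (7 more positive and 2 more negative), 40 without HeyA8-MDR, 27 without SK-OV-3-TR and 4 without SK-OV-3. Between the HeyA8 and OV2008 families 7 members had a more positive effect in HeyA8 cells (6.77%) and 0 a more negative one (7.33%), with 0 after adjustment (0.0107%) and 1 by DESeq2. PTTG1 differed by 1.02 ± 0.23 (SE; edgeR adjusted p = 0.146), CCNA2 by 1.11 ± 0.32 and BIRC5 by 0.82 ± 0.30. Without HeyA8 32 were more positive, and without HeyA8-MDR the 10 called members were 8 more negative and 2 more positive. The number was 4 without OV2008 and 2 without C13.

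Transcript length moved with the members' response, in different directions between lines. Across the 45 members, which are not independent replicates, Spearman's rho between transcript length and log2 change was 0.60 in C13, 0.48 in OV2008, 0.04 in SK-OV-3-TR, 0.13 in HeyA8-MDR, -0.26 in HeyA8 and -0.43 in SK-OV-3. Across 18603 genes it was 0.13 in C13, 0.07 in OV2008 and -0.14 in HeyA8. The 7 members of 6 kb or longer had a median change of 0.51 in OV2008 and 0.07 in C13, where the 8 members under 2 kb had -0.36 and -0.65. In HeyA8 the long members had a median of -1.22 and the short ones -0.29. In vehicle cells the long members were lower in HeyA8-MDR than in HeyA8 by a median log2 difference of -4.30, against -1.40 for the short ones, while the medians over all genes of these lengths were -0.27 and 0.19. GC content of the transcript had a rho of -0.77 with the change in HeyA8-MDR, -0.54 in OV2008, -0.52 in C13, -0.47 in SK-OV-3-TR, -0.08 in SK-OV-3 and 0.12 in HeyA8. Across all genes it lay between -0.20 (HeyA8-MDR) and 0.10 (HeyA8). With the trends on both properties over all genes removed, the member medians were 1.47 in SK-OV-3, 0.60 in SK-OV-3-TR, 0.80 in HeyA8-MDR, -0.29 in OV2008, -0.50 in C13 and -0.50 in HeyA8. In OV2008 and C13 the trends over all genes were weaker than those across the members. Removing them does not take out the members' own trends, so these medians do not show how far length or GC content shaped the changes.

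**Figure D5:**
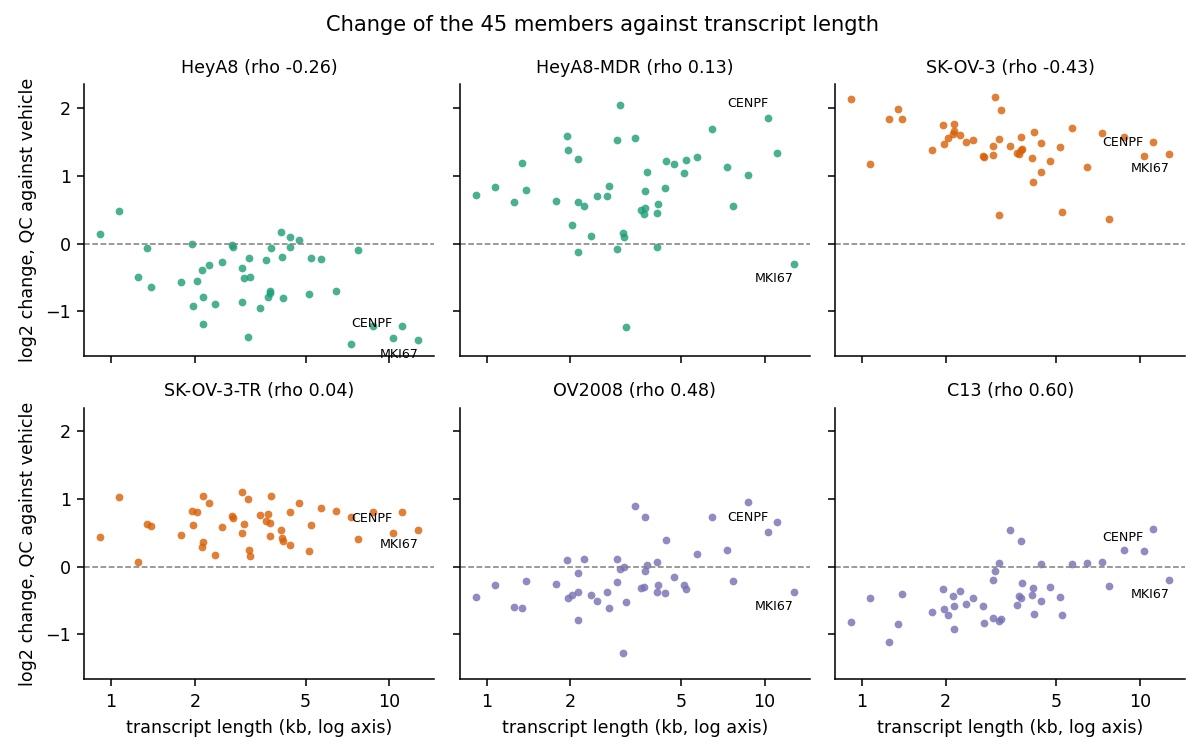
Log2 change with QC against transcript length (kb, log axis) for the 45 members in each line, with Spearman's rho in each title and CENPF and MKI67 named. Most members of 6 kb or longer lie low in HeyA8 and high in OV2008 and C13, with BUB3 an exception in HeyA8 and BUB3 and MKI67 exceptions in OV2008 and C13.

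The 29 members with the exact letters TTTGAA at any start had a median change of 1.47 in SK-OV-3, 0.60 in SK-OV-3-TR and 1.04 in HeyA8-MDR. In HeyA8, OV2008 and C13 their medians were -0.56, -0.22 and -0.42. The 10 members without TTTGAA, CCNB1 and KIF20A among them, had 1.47, 0.81, 0.73, -0.52, -0.32 and -0.65 in the same order of lines. No test was made of these medians.

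Of the transcription factors that drive these genes, FOXM1 had the sign of the member median in all 6 lines and MYBL2 in all but HeyA8. FOXM1 went from 28.7 to 55.8 CPM in SK-OV-3, from 68.9 to 112 in SK-OV-3-TR and from 112 to 153 in HeyA8-MDR, and from 317 to 211 in HeyA8, from 274 to 244 in OV2008 and from 184 to 137 in C13. Its effect over the 6 lines was 0.15 ± 0.20 (SE; edgeR adjusted p = 0.762). MYBL2 had log2 changes of 0.61, 0.25 and 0.54 in the first 3 of these lines, 0.03 in HeyA8, -0.54 in OV2008 and -0.82 in C13, with an effect of 0.01 ± 0.18 over all lines. Of 20 transcription regulators of these genes 4 were higher (7.99% of all genes were) and 1 lower (7.18%) over the 6 lines at an unadjusted p under 0.05. As a list these 20 did not follow the members, with median log2 changes between -0.02 (C13) and 0.20 (HeyA8-MDR). HeyA8 (0.10) and OV2008 (0.06) had list medians above 0 beside member medians below 0. RB1, the retinoblastoma repressor of E2F genes, had an effect of 0.63 ± 0.15 (adjusted p = 0.151), and NFYB, a subunit of the factor that binds CCAAT boxes, one of 0.63 ± 0.17 (adjusted p = 0.169), both higher in 6 of 6 lines. The regulator called lower was NFYA, another subunit of that factor, with an effect of -0.38 ± 0.14 (adjusted p = 0.222), lower in 5 of 6 lines.

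Further genes of the same phase had line medians of the same signs as the members. Of 74 other G2 and mitosis genes 10 were higher (7.99% of all genes were) and 0 lower (7.18%) over the 6 lines, and their medians by line were 1.02 in SK-OV-3, 0.45 in SK-OV-3-TR, 0.40 in HeyA8-MDR, -0.20 in OV2008, -0.45 in HeyA8 and -0.46 in C13. Between the SKOV3 and OV2008 families 41 of the 74 had a more positive effect in SKOV3 (6.5% of all genes did) and 0 a more negative one. SKA2, a kinetochore protein, had an effect of 0.49 ± 0.13 over the 6 lines (edgeR adjusted p = 0.157) and CKAP5, a microtubule polymerase, one of 0.36 ± 0.11 (adjusted p = 0.195). The 14 subunits of the anaphase-promoting complex, which are needed throughout the cycle, had medians between -0.26 (C13) and 0.26 (SK-OV-3-TR), with 1 higher over the 6 lines (ANAPC16, 0.24 ± 0.10) and 1 lower (ANAPC5, -0.29 ± 0.11).

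Of 52 G1/S and replication genes 0 were higher (7.99% of all genes were) and 5 lower, a share near the 7.18% of all genes, over the 6 lines. CDT1, which licenses replication origins, had an effect of -0.62 ± 0.13 (edgeR adjusted p = 0.141), and TIMELESS, a fork protection protein, one of -0.52 ± 0.14 (adjusted p = 0.164), both lower in 6 of 6 lines. The median of this list was -0.21 in SK-OV-3, where 14 of 52 were higher while all 45 members were, and 0.40 in SK-OV-3-TR, where 45 of 52 were higher. It was 0.02 in HeyA8-MDR, -0.26 in HeyA8, -0.28 in OV2008 and -0.49 in C13, where 0 of 52 were higher.

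Of 27 p53 targets 13 were higher over the 6 lines (7.99% of all genes were) and 0 lower (7.18%), with RPS27L (0.52 ± 0.11, edgeR adjusted p = 0.141) and the stress cytokine GDF15 (adjusted p = 0.148, from 38.1 to 171 CPM in HeyA8) in front. CDKN1A had an effect of 0.91 ± 0.27 (adjusted p = 0.18). Of 7 CDK inhibitors 3 were higher, CDKN1A, CDKN2B and CDKN2D, beside the same shares of all genes, and 0 lower. CDKN2B, the inhibitor p15, had counts in the OV2008 family only, 137 in vehicle and 346 in QC cells of OV2008 and 449 and 885 in C13, and 0 in the other 8 libraries, so it passed the expression filter through that family alone.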

How the data were processed

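RNA was sequenced from 6 cell lines, named by the study as ovarian cancer lines, with and without QC (8 µM, 6 h). The deposited values are raw counts per gene made by the authors with HTSeq. The paper names TopHat and hg19, whereas the submitters' processing notes name STAR 2.7.3a, HTSeq 0.6.1p1 and GRCh38.p13; the strand setting is not given in the sources used here. Of 60669 gene IDs 58623 were paired with a symbol, and unpaired IDs held 0.132% of counts.

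Counts were scaled by TMM and tested in R 4.3.3 with edgeR 4.0.16 (quasi-likelihood, limma 3.58.1), after filterByExpr (minimum count 10, minimum total 15). Models had a term per cell line and a QC effect over all lines, per resistance group or per family. Vehicle levels were tested in the 6 vehicle libraries with family as a term. P-values were adjusted over 18720 genes by the Benjamini-Hochberg method. Values per line are log2 ratios of CPM with a prior count of 2. The libraries of a line deviated together (r between 0.893 and 0.929 across genes), and the pairing comes from the shared line.

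The members and gene lists were chosen with earlier results of these data known. Named genes are, per role, the 2 members with the smallest p over the 6 lines, plus CCNB1, CDK1, PLK1, MKI67, TOP2A, CDKN1A, FOXM1 and MYBL2, the 3 members with the smallest p for each difference and vehicle levels, and 2 genes of each other list. Others were named after their values were seen, among them the lowest and highest member of a line, CDC25B, CDC25C, MDM2, ABCB1 and NFYA. Alternatives were no cell line term, DESeq2 1.42.0, its size factors, library size, RPLP0 scaling, a prior count of 0.5, other filters, leaving out each line, a family block, and, added after seeing the data, loess trends (span 0.5) on GC content and transcript length. Tests were tried on simulated counts. Plots used matplotlib.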

Additional observations from a re-analysis of the deposited data

Results flagged for a closer look

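The QC effect on the members was compared between the isogenic families by contrasts of the family effects with edgeR. Each family had 2 lines, the comparison was chosen after the values were seen, and 0 members passed adjustment. The 2 HeyA8 lines had member medians of opposite sign. The number of members at an unadjusted p under 0.05 was 33 for SKOV3 minus OV2008 (6.5% of all genes were called in that direction), 17 for SKOV3 minus HeyA8 (4.66%) and 7 for HeyA8 minus OV2008 (6.77%). For SKOV3 minus OV2008 the log2 differences were 1.46 for PTTG1, 1.71 for CCNA2 and 2.30 for KIF20A. For SKOV3 minus HeyA8 they were 1.79 for MKI67, 1.88 for KIF20A and 1.32 for CCNB1. For HeyA8 minus OV2008 they were 1.02 for PTTG1, 1.11 for CCNA2 and 0.82 for BIRC5.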

How the results depend on the processing

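The member counts depended on the processing, and the cause was not tested in any case. Shares of all genes are given for the main fits only, so the counts below do not show whether other genes moved alike. For the QC effect over the 6 lines the 11 members were 0 without the replicate block (the cell line term), 5 with GC content and length offsets and 18 without a filter, of which 13 passed adjustment; DESeq2 passed 1. Leaving out a line gave 1 to 15, and 0 after adjustment throughout. In sensitive lines (0) the count was 1 with library size scaling and 10 without a filter, and leaving out a line gave 0 to 10. In resistant lines (5) it was 0 without the replicate block, 1 with GC content and length offsets and 16 without a filter, and leaving out a line gave 0 to 13. The difference between them (0) had 1 without a filter and 0 to 9 with a line left out, and vehicle levels had 0 to 6 with a family left out. SKOV3 minus OV2008 (33) had 1 without the replicate block, and 16 to 39 with a line left out. After adjustment it had 16 with DESeq2, 33 without a filter and 0 to 28 with a line left out. SKOV3 minus HeyA8 (17) had 1 without the block, 32 without a filter and 4 to 40 with a line left out, and after adjustment 2 with DESeq2, 12 without a filter and 0 to 18. HeyA8 minus OV2008 (7) had 0 without the block, 2 with library size scaling, 20 without a filter and 2 to 32 with a line left out, and after adjustment 1 with DESeq2, 3 without a filter and 0 to 5. Its median of 0.43 became -0.23 without HeyA8-MDR. RPLP0 scaling moved the line medians to 0.21 in OV2008 and 0.042 in C13. Library size scaling shifted the median of all genes by 0.12 in C13, -0.12 in SK-OV-3-TR and -0.13 in HeyA8-MDR and turned no line median.

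Effects that missed the threshold changed sign in some settings. Without the replicate block the effect over the 6 lines was -0.17 for CCNB1, -0.12 for PLK1, -0.11 for FOXM1 and -0.35 for MYBL2, and with library size scaling it was -0.00314 for MYBL2. Leaving out a line gave -0.00501 to 0.41 for CCNB2, -0.00122 to 0.55 for UBE2C, -0.11 to 0.16 for INCENP, -0.36 to 0.19 for MKI67, -0.13 to 0.32 for CCNB1, -0.17 to 0.32 for PLK1, -0.017 to 0.30 for FOXM1 and -0.12 to 0.17 for MYBL2. For the difference between resistant and sensitive lines it gave -0.074 to 1.28 for CENPF and -0.19 to 1.17 for ASPM. Leaving out a family gave vehicle differences of -0.10 to 1.35 for UBE2C and -0.045 to 1.68 for NUSAP1.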
